A study of Mus musculus with 12 samples.

Results

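The mitosis genes described here are 43 genes whose products act from entry into mitosis to the separation of daughter cells. They were taken by symbol from a table of 42329 entries measured by RNA sequencing in MC38 cells, a mouse colon adenocarcinoma line, and each of the 43 symbols had 1 entry. The cells carried a guide RNA against Hcar1, which encodes a cell-surface receptor that lactate activates (sgHcar1), or a control guide (sgControl). Each kind of cell was kept with 20 mM lactate for 24 hours or with PBS, the saline vehicle. This gave 4 groups of 3 libraries: sgHcar1 in lactate, sgHcar1 in PBS, sgControl in lactate and sgControl in PBS. The labels do not say whether sgHcar1 cells are a clone or a mixed population. They also do not say whether libraries of 1 group are separate cultures, so p-values cover the spread among these libraries, which may be technical.

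A cell enters mitosis when cyclins bind and switch on the kinase CDK1, helped by CDC25 phosphatases and by the kinase PLK1. Chromosomes then attach through kinetochores to the spindle, and a checkpoint holds the cell until all are attached. Once it is satisfied, CDC20 and the anaphase-promoting complex mark cyclin B for destruction, sister chromatids separate and the cell divides at the midzone. Many of these genes are transcribed late in the cell cycle by the MuvB complex together with B-Myb and FOXM1. Their promoters often hold CCAAT boxes, which are bound by NF-Y. In resting cells the DREAM complex silences the genes through a promoter element called CHR (typically TTTGAA). Their message is therefore highest in cells in G2 and mitosis, and in bulk RNA fewer such cells and less message per cell cannot be told apart.

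The promoters of these genes are shown because both sequence elements recur in them. RefSeq promoter windows of build GRCm38.p6, 250 bases before to 50 after each start, were at hand for 36 of the 43 genes, in 39 windows. TTTGAA, on either strand, was in 30 of the 39 windows (76.9%), against 11.8% of the windows of genes expressed in these cells and 17.9% of all 32851 windows. CCAAT, on either strand, was also in 30 of the 39 windows (76.9%), against 37.5% of the windows of expressed genes and 37.4% of all. Both occurred together in 26 windows (66.7%), against 4.8% and 6.95%. TTTAAA, a second form of the CHR element, was in 10 windows (25.6%, against 8.95% of those of expressed genes and 13.2% of all). A pair of E2F-type motifs, rare among all windows, had few matches here. GGCGGGAA had no match in the 39 windows, against 4.13% of those of expressed genes and 2.19% of all. TTTCGCGC was in 1 window (2.56%, against 0.641% of those of expressed genes and 0.323% of all). Among 141 windows of other mitotic genes, TTTGAA was in 34.0%, CCAAT in 51.8% and both in 21.3%. Among 29 windows of DNA replication genes, TTTGAA was in 13.8%, CCAAT in 58.6%, GGCGGGAA in 17.2% and TTTCGCGC in 20.7%. A match is a description of the letters only and shows no binding.

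The 150 bases before the start of 6 members follow, 5′ to 3′ on the strand of the gene, with the CCAAT boxes (either strand) and both forms of the CHR element in capitals. Cdc20 was the most abundant member in 3 of the 4 groups, Ccnb2 and Cdk1 encode a core cyclin and its kinase, Plk1 and Ankle1 had the lowest shares of their PBS level left in lactate in sgHcar1 cells, and Plk4 changed least.
Cdc20, chr4:118437344-118437493, minus strand: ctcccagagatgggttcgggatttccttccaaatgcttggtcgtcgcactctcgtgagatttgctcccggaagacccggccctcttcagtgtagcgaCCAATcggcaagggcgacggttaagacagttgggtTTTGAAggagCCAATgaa
Ccnb2, chr9:70421555-70421704, minus strand: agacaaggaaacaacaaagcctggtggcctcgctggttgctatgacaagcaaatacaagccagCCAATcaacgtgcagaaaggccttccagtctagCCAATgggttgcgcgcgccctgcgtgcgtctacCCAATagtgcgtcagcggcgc
Cdk1, chr10:69352913-69353062, minus strand: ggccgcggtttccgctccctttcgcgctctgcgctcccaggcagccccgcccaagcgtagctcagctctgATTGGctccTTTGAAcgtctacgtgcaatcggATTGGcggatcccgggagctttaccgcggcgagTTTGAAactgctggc
Plk1, chr7:122159285-122159434, plus strand: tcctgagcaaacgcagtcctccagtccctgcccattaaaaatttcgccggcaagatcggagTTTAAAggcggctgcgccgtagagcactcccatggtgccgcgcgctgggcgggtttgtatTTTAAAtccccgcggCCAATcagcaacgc
Ankle1, chr8:71405862-71406011, plus strand: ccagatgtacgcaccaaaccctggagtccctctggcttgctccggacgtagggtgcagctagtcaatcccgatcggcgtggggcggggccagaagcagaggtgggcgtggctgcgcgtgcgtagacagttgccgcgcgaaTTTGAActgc
Plk4, chr3:40799801-40799950, plus strand: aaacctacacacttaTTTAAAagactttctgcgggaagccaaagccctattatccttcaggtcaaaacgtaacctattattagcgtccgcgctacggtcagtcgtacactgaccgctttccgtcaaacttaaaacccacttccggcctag
In Cdc20 a TTTGAA lies 18 bases before the start, between CCAAT boxes at 53 and 8 bases. Ccnb2 has 3 CCAAT boxes, at 87, 54 and 21 bases before its start, and its TTTGAA matches, 167 bases before and 5 after the start, lie outside the printed stretch. The Cdk1 stretch holds TTTGAA at 71 and 15 bases and CCAAT on the opposite strand at 80 and 48 bases. Plk1 has TTTAAA at 89 and 29 bases and CCAAT at 14 bases before its start, and a TTTGAA after it. The Ankle1 window holds TTTGAA at 10 bases and no CCAAT. The Plk4 window holds TTTAAA at 135 bases before its start and neither TTTGAA nor CCAAT. Windows without TTTGAA and CCAAT were 5 of the 39 (12.8%), against 55.5% of those of expressed genes. The others were those of Birc5, Nusap1, Nuf2 and Mad2l1. Their log2 changes with lactate in sgHcar1 cells were -2.09, -2.14, -1.82 and -1.02, against -0.17 for Plk4. A relation between motifs and changes was not tested.

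Values are FPKM as deposited, that is fragments scaled for gene length and for library total, so levels can be compared between genes. Changes are differences of log2(FPKM + 1) with their standard errors as limma gives them (n = 3 libraries a group), a scale that understates the change of genes at low levels. A gene was called when its Benjamini-Hochberg adjusted p, over the 13736 genes that reached 1 FPKM in 3 or more libraries, was below 0.05. All 43 mitosis genes passed that filter. Hcar1 itself was listed at 0 in 5 of the 6 sgHcar1 libraries and in all 6 sgControl libraries, and at 0.0196 FPKM in the remaining one, so the labels could not be checked on it.

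Properties of whole libraries moved with the groups. The summed FPKM was 411996.2 to 421984.3 in sgHcar1 cells in lactate, 362814.6 to 367976.7 in sgHcar1 cells in PBS, 310109 to 317330.3 in sgControl cells in lactate and 322359.4 to 324562.3 in sgControl cells in PBS. The depth of a library relative to the deepest, read from the steps between low values, was 0.746 to 1, lowest in sgHcar1 cells in lactate (0.746 to 0.793). The other groups overlapped, at 0.865 to 0.933 in sgHcar1 cells in PBS, 0.904 to 0.988 in sgControl cells in lactate and 0.887 to 1 in PBS. Depth in reads is unknown. Most colon epithelial markers were at or near 0, with Krt18 in sgHcar1 cells the main exception. Epcam and Cdx2 were listed at 0 in all 12 libraries, and of 9 epithelial markers 3 reached a mean of 1 FPKM in some group. These were Krt18 in both sgHcar1 groups (113 FPKM in lactate, 46.2 FPKM in PBS), Cdh1 in both sgControl groups and Krt19 in sgControl cells in PBS. The 9 summed to 111 to 114 FPKM in sgHcar1 cells in lactate, 44.9 to 48.7 FPKM in sgHcar1 cells in PBS, 4.93 to 5.24 FPKM in sgControl cells in lactate and 3.11 to 3.36 FPKM in sgControl cells in PBS. The 8 fibroblast markers summed to 66.8 to 72.6 FPKM in sgHcar1 cells in lactate, 141 to 150 FPKM in sgHcar1 cells in PBS, 129 to 136 FPKM in sgControl cells in lactate and 143 to 147 FPKM in sgControl cells in PBS, with Lum and Thy1 at 0 throughout. The near-equal sums in PBS hid opposite differences between the guides. Col3a1 was at 1.55 FPKM in sgHcar1 and 67.2 FPKM in sgControl cells in PBS, and Dcn, Pdgfra and Pdgfrb were lower in sgHcar1 cells too. In the other direction, Col1a2 was at 115 FPKM in sgHcar1 and 45.5 FPKM in sgControl cells in PBS, and Col1a1 at 23.1 and 1.01 FPKM. Summed leukocyte markers were 1.39 to 6.94 FPKM, with Cd68 the only one of 6 at 1 FPKM, and endothelial markers at most 0.821 FPKM. The part of depth and of these markers in the results was not tested.

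The whole group was lower with lactate in both kinds of cell. All 43 genes fell in sgHcar1 cells (median log2 change -1.63, range -3.13 to -0.17), where 35.4% of all genes tested were called lower, and all 43 fell in sgControl cells (median -1.20, range -2.08 to -0.23), where 31.9% were. The median over all genes tested was 0.00 in both. The members were chosen with earlier results of these data known, so the counts, here and below, only describe this list. A fall of at least 2-fold was called for 39 of the 43 genes in sgHcar1 cells, against 6.16% of all genes tested, and for 30 in sgControl cells, against 2.95%. For all 43 genes the 3 lactate libraries lay below the 3 PBS libraries in both kinds of cell, which was so for 35.9% of all genes tested in sgHcar1 cells and 34% in sgControl cells. Standard errors were 0.03 to 0.09, and the largest adjusted p of the 43 in limma was 0.00259 in sgHcar1 cells and 0.00104 in sgControl cells.

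**Figure D1:**
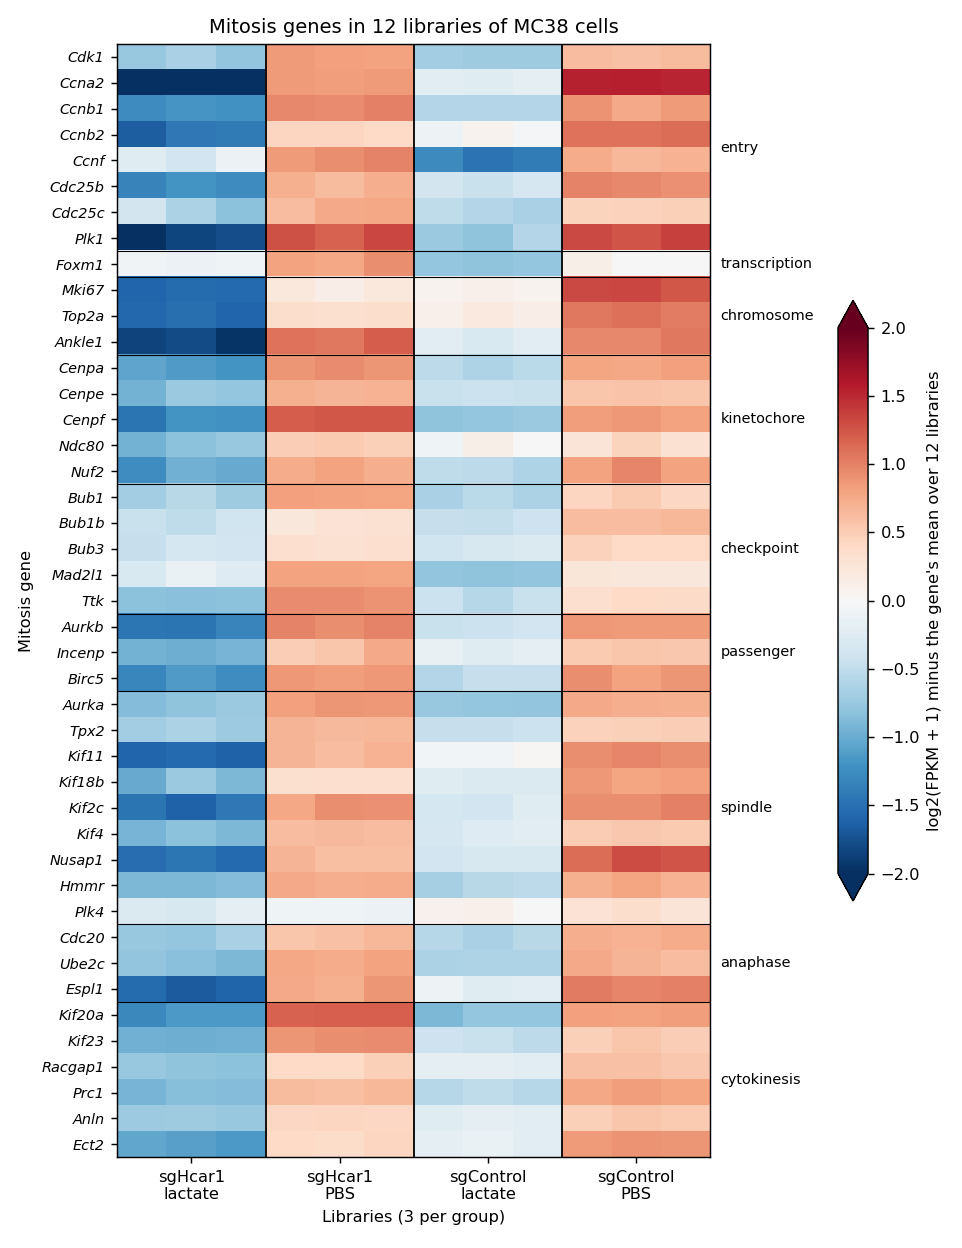
Colour gives log2(FPKM + 1) of each mitosis gene (rows, grouped by role) in each of the 12 libraries (columns, 3 per group) minus the gene's mean over the 12 libraries, red for higher and blue for lower. The 3 libraries of a group look alike. The lactate columns are lower than the PBS columns of the same guide in all 43 rows. In most rows the deepest blue is in sgHcar1 cells in lactate. Ccnf, Foxm1 and Mad2l1 are lowest in sgControl cells in lactate.

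Summed over the 43 genes, FPKM was 779.7 ± 11.7 in sgHcar1 cells in lactate, against 2406 ± 38.1 in the same cells in PBS (SD, n = 3 each), so that 32.4% of the PBS level was left. In sgControl cells the sum was 1152 ± 11.4 FPKM in lactate and 2563 ± 8.5 FPKM in PBS (SD, n = 3 each), so that 44.9% was left. The share of a single gene's PBS level left in lactate was 8.8% to 87.9% in sgHcar1 cells, with a median of 30.6%, and 22% to 84.3% in sgControl cells, with a median of 42.4%.

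All 8 kinases, cyclins and phosphatases of mitotic entry fell at least 2-fold in both kinds of cell. Of all genes tested, 6.16% did so in sgHcar1 and 2.95% in sgControl cells. Plk1, the polo-like kinase of mitotic entry and spindle assembly, had 6.36, 7.20 and 7.52 FPKM in sgHcar1 cells in lactate, against 69.4, 65.3 and 73.0 FPKM in sgHcar1 cells in PBS. The sgControl libraries had 16.5, 15.7 and 18.6 FPKM in lactate, against 71.6, 68.5 and 74.0 FPKM in PBS. The guides thus overlapped in PBS, while in lactate the sgHcar1 libraries lay lower. Its log2 change was -3.13 ± 0.07 in sgHcar1 cells (limma adjusted p = 1.95e-11) and -2.02 ± 0.07 in sgControl cells (adjusted p = 8.98e-10). Ccna2, the cyclin that binds CDK2 and CDK1 from S phase into early mitosis, had 6.495, 7.46 and 6.83 FPKM in sgHcar1 cells in lactate, against 63.0, 62.5 and 63.0 FPKM in PBS. In sgControl cells it had 29.5, 29.1 and 30.4 FPKM in lactate, against 102, 104 and 101 FPKM in PBS. No 2 of the 4 groups overlapped, and the changes with lactate were -3.01 ± 0.04 and -1.75 ± 0.04 in sgHcar1 and sgControl cells.

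Ccnf, which encodes cyclin F, the substrate-binding subunit of an SCF ubiquitin ligase active in G2, had 23.3, 20.9 and 25.5 FPKM in sgHcar1 cells in lactate, against 50.55, 53.5 and 55.9 FPKM in PBS. In sgControl cells it had 10.9, 9.24 and 9.87 FPKM in lactate, against 46.7, 44.2 and 45.3 FPKM in PBS. Its fall was one of the smaller in sgHcar1 cells (-1.17 ± 0.07) and the largest of the 43 genes in sgControl cells (-2.08 ± 0.07). The B-type cyclins, partners of CDK1, changed by -2.19 ± 0.04 (Ccnb1) and -1.92 ± 0.06 (Ccnb2) in sgHcar1 cells and by -1.43 ± 0.04 and -1.12 ± 0.06 in sgControl cells. As deposited, Cdk1 reached nearly the same level with lactate in both, 28.2 ± 1.53 FPKM in sgHcar1 cells and 28.7 ± 0.138 FPKM in sgControl cells. In PBS it was at 84.7 ± 1.43 FPKM in sgHcar1 cells and 72.9 ± 1.48 FPKM in sgControl cells (SD, n = 3 each). With libraries rescaled to an equal sum of FPKM, Cdk1 in lactate was lower in sgHcar1 cells (-0.44, limma adjusted p = 5.34e-07). Quantile normalization gave -0.13 (limma adjusted p = 0.00431). The phosphatase gene Cdc25b changed by -1.95 ± 0.04 and -1.34 ± 0.04 in sgHcar1 and sgControl cells, and Cdc25c by -1.32 ± 0.09 and -1.05 ± 0.09.

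Foxm1, the transcription factor that activates many of the other members, fell less than most of them. It had 39.1, 38.0 and 38.9 FPKM in sgHcar1 cells in lactate, against 73.0, 71.2 and 79.3 FPKM in PBS. The sgControl libraries had 23.8, 23.2 and 23.7 FPKM in lactate, against 44.7, 41.1 and 41.4 FPKM in PBS. Its level in sgHcar1 cells in lactate thus lay just below that of sgControl cells in PBS. The changes with lactate were -0.93 ± 0.04 in sgHcar1 and -0.82 ± 0.04 in sgControl cells (limma adjusted p = 4.87e-09 and 2.36e-08).

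Of the genes for chromosome structure, Mki67, whose product Ki-67 coats mitotic chromosomes and marks dividing cells, had 14.1, 14.7 and 14.6 FPKM in sgHcar1 cells in lactate, against 51.6, 49.1 and 51.6 FPKM in PBS. In sgControl cells it had 46.7, 47.7 and 47.0 FPKM in lactate, against 113, 114 and 106 FPKM in PBS. Top2a, the topoisomerase that untangles sister chromatids, had 24.3, 25.5 and 24.1 FPKM in sgHcar1 cells in lactate, against 94.9, 93.0 and 95.0 FPKM in PBS, and in sgControl cells 79.3, 85.1 and 81.5 FPKM in lactate, against 155, 161 and 151 FPKM in PBS. For both genes sgHcar1 cells in PBS lay above sgControl cells in lactate and below sgControl cells in PBS. Ankle1, a nuclease that in human cells cuts chromatin bridges, had 2.06, 2.18 and 1.81 FPKM in sgHcar1 cells in lactate, against 22.5, 21.8 and 24.5 FPKM in PBS, so that 8.8% of the PBS level was left, the lowest share of the 43 genes. In sgControl cells 40% was left, with 8.54, 7.91 and 8.54 FPKM in lactate, against 20.4, 20.3 and 21.8 FPKM in PBS.

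Among the 5 centromere and kinetochore genes, Cenpf, a kinetochore protein that builds up in G2, had 4.13, 5.16 and 5.08 FPKM in sgHcar1 cells in lactate, against 31.5, 32.3 and 32.4 FPKM in PBS. In sgControl cells it had 7.10, 7.23 and 7.41 FPKM in lactate, against 24.0, 24.8 and 23.6 FPKM in PBS. Its changes were -2.52 ± 0.06 and -1.61 ± 0.06. Cenpa, the histone H3 variant of centromeres, changed by -2.04 ± 0.04 and -1.36 ± 0.04 in sgHcar1 and sgControl cells, and the kinesin gene Cenpe was left at 33.5% and 48.6% of its PBS level. Ndc80 and Nuf2 encode partner subunits of the complex that grips spindle microtubules, and were at different shares of their PBS level in sgControl cells in lactate, 79.6% and 33.3%. In sgHcar1 cells Ndc80 was at 18.3 ± 1.27 FPKM in lactate, against 47.8 ± 0.77 FPKM in PBS, and Nuf2 at 3.13 ± 0.424 FPKM in lactate, against 13.6 ± 0.383 FPKM in PBS (SD, n = 3 each). In sgControl cells Ndc80 was at 33.9 ± 2.57 FPKM in lactate, against 42.6 ± 2.87 FPKM in PBS, and Nuf2 at 4.90 ± 0.213 FPKM in lactate, against 14.7 ± 1.11 FPKM in PBS (SD, n = 3 each). The fall of Ndc80 was thus -1.34 ± 0.06 in sgHcar1 and -0.32 ± 0.06 in sgControl cells, and that of Nuf2 -1.82 ± 0.07 and -1.41 ± 0.07.

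All 5 spindle assembly checkpoint genes fell in both, with a median change of -1.02 in sgHcar1 and -1.03 in sgControl cells. Of all genes tested, 35.4% and 31.9% fell there. Ttk, the kinase MPS1 that starts checkpoint signalling, had 5.17, 5.09 and 5.15 FPKM in sgHcar1 cells in lactate, against 20.0, 19.8 and 19.3 FPKM in PBS, and in sgControl cells 7.06, 6.30 and 7.01 FPKM in lactate, against 12.8, 13.2 and 13.2 FPKM in PBS. Bub1b, which encodes the CDC20 inhibitor BUBR1, had 26.6, 25.5 and 27.4 FPKM in sgHcar1 cells in lactate, against 43.0, 44.6 and 45.5 FPKM in PBS. In sgControl cells it had 26.2, 26.0 and 27.2 FPKM in lactate, against 56.5, 56.4 and 58.3 FPKM in PBS. As deposited, the guides overlapped in lactate and stood apart in PBS. With libraries rescaled to an equal sum, Bub1b in lactate was lower in sgHcar1 cells (-0.41, limma adjusted p = 3.54e-07). Quantile normalization gave -0.08 (limma adjusted p = 0.0349). Mad2l1, whose product MAD2 holds CDC20 back, had 8.93, 10.2 and 9.29 FPKM in sgHcar1 cells in lactate, against 20.4, 20.3 and 20.1 FPKM in PBS, and in sgControl cells 6.09, 6.03 and 6.06 FPKM in lactate, against 13.4, 13.3 and 13.4 FPKM in PBS. Nearly the same share of the PBS level was left in both, 46.7% and 45.3%. Bub3 changed by -0.72 ± 0.04 and -0.75 ± 0.04, and the kinase gene Bub1 by -1.46 ± 0.05 and -1.06 ± 0.05 in sgHcar1 and sgControl cells.

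The chromosomal passenger complex corrects faulty attachments and later guides cell cleavage. Its kinase gene Aurkb had 10.85, 10.8 and 12.02 FPKM in sgHcar1 cells in lactate, against 63.2, 61.0 and 63.7 FPKM in PBS, and in sgControl cells 22.7, 23.1 and 23.9 FPKM in lactate, against 58.3, 57.7 and 57.3 FPKM in PBS. Birc5, the subunit survivin, had 10.3, 11.7 and 10.9 FPKM in sgHcar1 cells in lactate, against 50.2, 49.1 and 50.1 FPKM in PBS, and in sgControl cells 17.7, 19.3 and 19.2 FPKM in lactate, against 52.2, 47.6 and 50.7 FPKM in PBS. In PBS Aurkb was slightly higher in sgHcar1 cells and the guides overlapped for Birc5, while in lactate all 3 sgHcar1 libraries were lower for both genes. The changes with lactate in sgHcar1 and sgControl cells were -2.38 ± 0.04 and -1.28 ± 0.04 for Aurkb, -2.09 ± 0.05 and -1.38 ± 0.05 for Birc5, and -1.55 ± 0.05 and -0.73 ± 0.05 for the scaffold subunit Incenp.

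**Figure D2:**
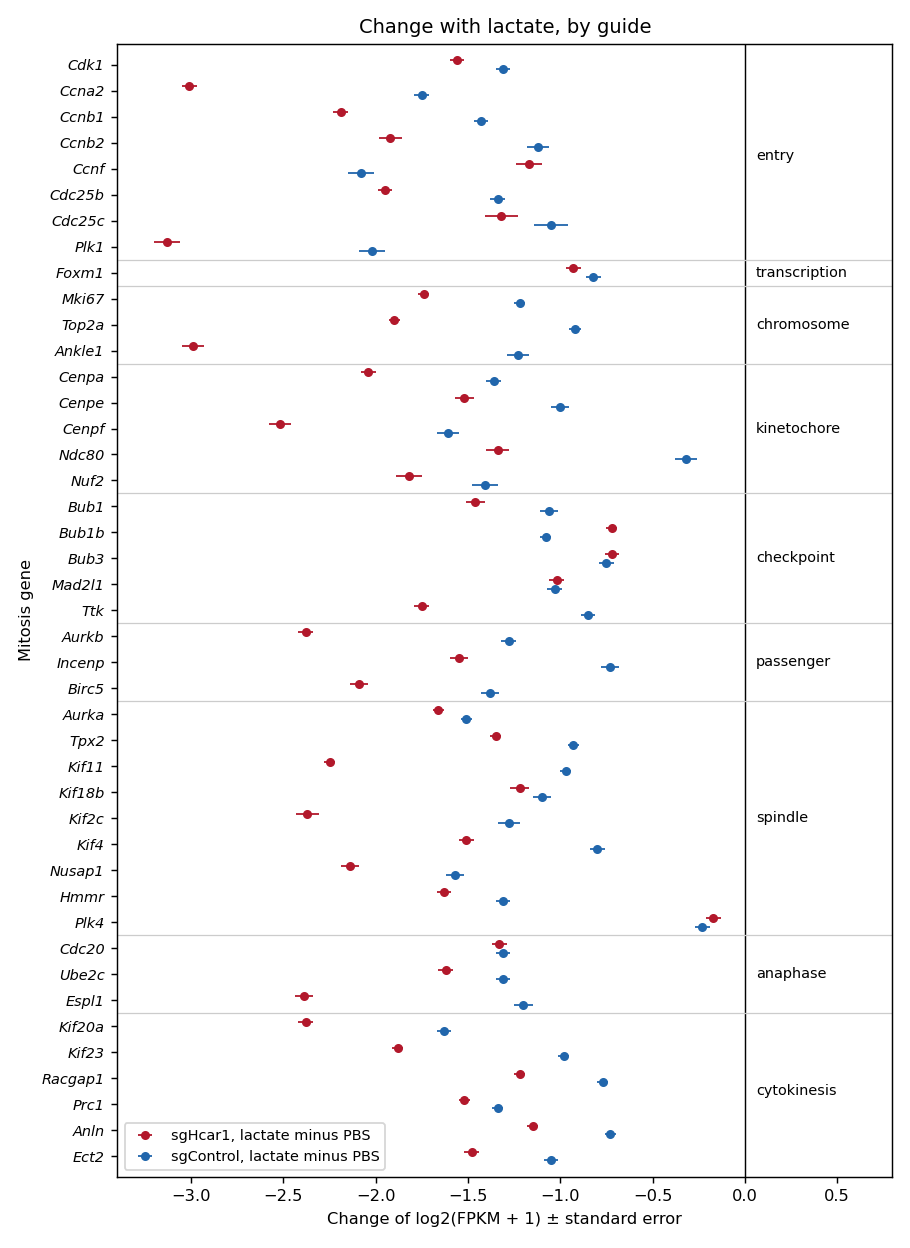
Points give the change of log2(FPKM + 1) with lactate for each mitosis gene (rows, grouped by role) in sgHcar1 cells (red) and sgControl cells (blue), and bars the limma standard error (n = 3 libraries a group). All points lie left of 0, most red points lie left of the blue ones, Ccnf and Bub1b are clearly the reverse, the points of Bub3, Mad2l1 and Plk4 are nearly level, and Plk4 lies nearest to 0.

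All 9 spindle and centriole genes fell in both, where 35.4% (sgHcar1) and 31.9% (sgControl) of all genes tested fell. Kif11, the kinesin that pushes spindle poles apart, had 9.58, 9.75 and 9.33 FPKM in sgHcar1 cells in lactate, against 49.7, 47.6 and 50.5 FPKM in PBS, and in sgControl cells 29.6, 29.6 and 31.3 FPKM in lactate, against 59.3, 61.6 and 59.4 FPKM in PBS. Kif2c, a kinesin that shortens microtubules at centromeres, had 6.72, 5.92 and 6.89 FPKM in sgHcar1 cells in lactate, against 35.0, 39.3 and 38.7 FPKM in PBS, and in sgControl cells 15.7, 15.2 and 16.9 FPKM in lactate, against 39.3, 39.4 and 41.6 FPKM in PBS. These were among the deepest falls of the spindle genes in sgHcar1 cells, at -2.25 ± 0.03 and -2.37 ± 0.06. Nusap1, a microtubule-bundling protein gene, had 5.002, 5.34 and 4.92 FPKM in sgHcar1 cells in lactate, against 26.6, 25.3 and 25.3 FPKM in PBS, and in sgControl cells 12.3, 12.8 and 12.8 FPKM in lactate, against 36.4, 41.6 and 40.5 FPKM in PBS. Its change in sgControl cells (-1.57 ± 0.05) was the deepest there among the spindle genes.

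Aurka, the centrosome kinase, and Tpx2, which activates it on the spindle, did not fall to the same extent. Aurka changed by -1.66 ± 0.03 in sgHcar1 and -1.51 ± 0.03 in sgControl cells, and Tpx2 by -1.35 ± 0.03 and -0.93 ± 0.03. The remaining spindle genes Hmmr, Kif4 and Kif18b changed by -1.22 to -1.63 in sgHcar1 cells and by -0.80 to -1.31 in sgControl cells. Plk4, which sets the number of centrioles and acts earlier in the cycle, stood apart with the smallest fall of the 43 genes in both kinds of cell. It had 12.6, 12.3 and 13.5 FPKM in sgHcar1 cells in lactate, against 14.6, 14.7 and 14.3 FPKM in PBS, and in sgControl cells 16.65, 16.8 and 15.6 FPKM in lactate, against 19.3, 20.1 and 18.8 FPKM in PBS. The changes were -0.17 ± 0.04 and -0.23 ± 0.04 (limma adjusted p = 0.00259 and 0.000419).

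Of the 3 genes of anaphase onset, Cdc20, the activator of the anaphase-promoting complex, fell almost alike in both kinds of cell. It had 70.9, 70.7 and 77.1 FPKM in sgHcar1 cells in lactate, against 178, 183 and 193 FPKM in PBS, and in sgControl cells 81.2, 76.6 and 82.2 FPKM in lactate, against 200.4, 196 and 203 FPKM in PBS. Espl1, the protease separase that cuts cohesin, had 4.98, 4.49 and 4.74 FPKM in sgHcar1 cells in lactate, against 28.3, 27.6 and 31.2 FPKM in PBS. In sgControl cells Espl1 had 15.1, 13.6 and 13.8 FPKM in lactate, against 34.5, 33.2 and 33.8 FPKM in PBS. The share of the PBS level left in sgHcar1 and sgControl cells was 39.5% and 40.1% for Cdc20 but 16.3% and 41.9% for Espl1. Ube2c, which loads ubiquitin for the same complex, kept 31.9% and 39.6%.

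All 6 midzone and cytokinesis genes fell in both, where 35.4% (sgHcar1) and 31.9% (sgControl) of all genes tested fell. Kif20a, a kinesin of the midzone, had 12.9, 14.3 and 14.3 FPKM in sgHcar1 cells in lactate, against 75.6, 76.3 and 76.6 FPKM in PBS, and in sgControl cells 17.2, 18.9 and 18.9 FPKM in lactate, against 58.9, 58.3 and 59.4 FPKM in PBS. It was the highest in sgHcar1 cells in PBS and the lowest in the same cells in lactate. Kif23 and Racgap1 form the centralspindlin complex, which recruits ECT2 to start the cleavage furrow. They changed by -1.88 ± 0.03 and -1.22 ± 0.03 in sgHcar1 cells and by -0.98 ± 0.03 and -0.77 ± 0.03 in sgControl cells. Ect2 changed by -1.48 ± 0.04 and -1.05 ± 0.04, the microtubule bundler Prc1 by -1.52 ± 0.03 and -1.34 ± 0.03, and the contractile ring scaffold Anln by -1.15 ± 0.03 and -0.73 ± 0.03 in sgHcar1 and sgControl cells.

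**Figure D3:**
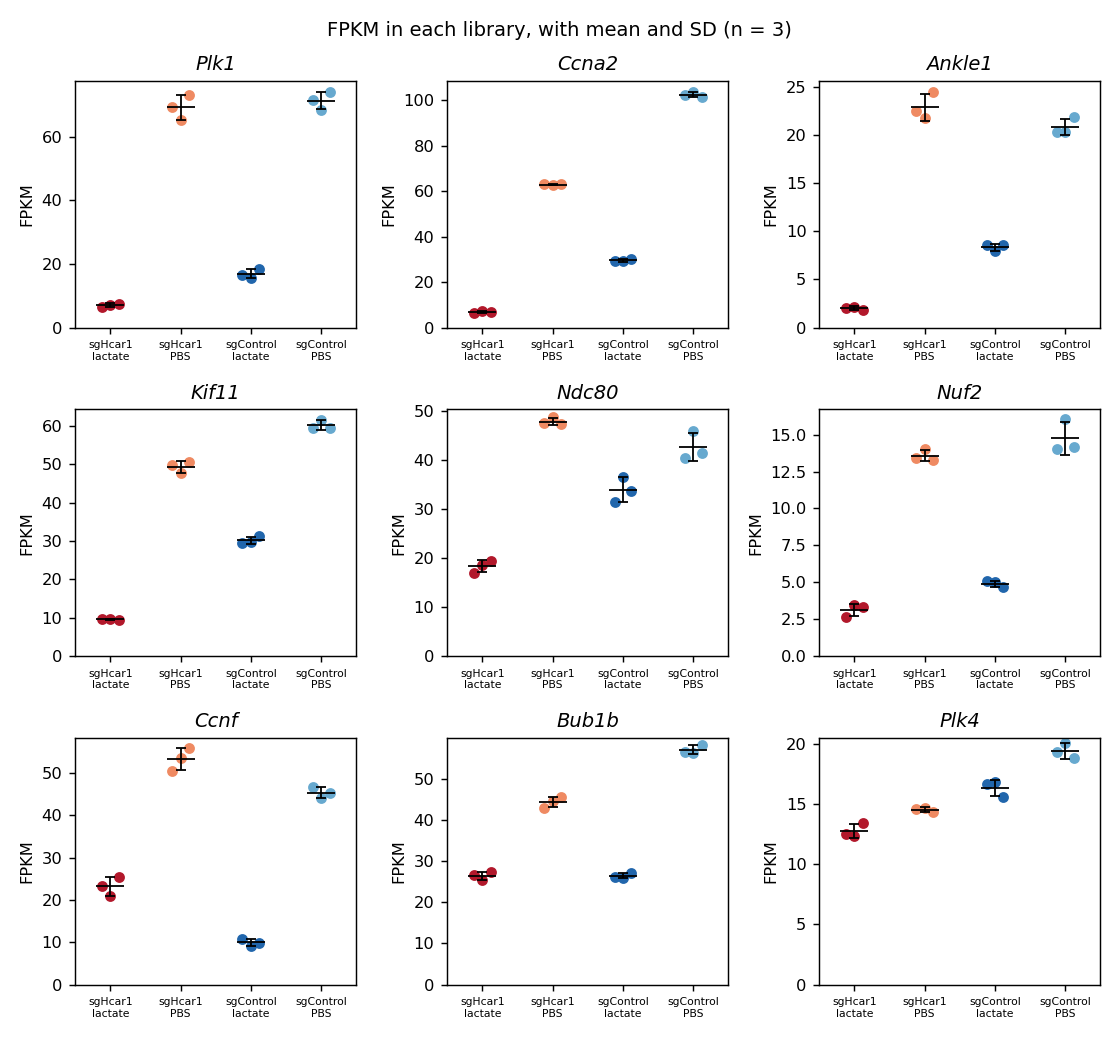
FPKM (linear axis from 0) of 9 mitosis genes in each of the 12 libraries, with points for libraries, a line for the group mean and bars for the SD (n = 3). Plk1, Ankle1 and Ndc80 are lowest in sgHcar1 cells in lactate, Ccnf is lowest in sgControl cells in lactate, and Plk4 changes little with lactate.

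The next comparison asked whether lactate lowered these genes by the same amount in both kinds of cell. The difference between the lactate changes, sgHcar1 minus sgControl, was called for 36 of the 43 genes, against 59.1% of all genes tested. It was negative, a deeper fall in sgHcar1 cells, for 34 of them, where 28.7% of all genes tested had a called negative difference, and positive for 2, where 30.4% had a positive one. The median difference of the 43 genes was -0.52, against 0.01 over all genes tested. For 8 genes it was -1 or beyond, which was called for 3.59% of all genes tested. These were Ankle1 (-1.76 ± 0.08), Kif11 (-1.28 ± 0.05), Ccna2 (-1.26 ± 0.05), Espl1 (-1.19 ± 0.08), Plk1 (-1.12 ± 0.10), Aurkb (-1.10 ± 0.06), Kif2c (-1.08 ± 0.09) and Ndc80 (-1.02 ± 0.09), with a largest limma adjusted p of 4.01e-06.

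The 2 genes with a smaller fall in sgHcar1 cells were Ccnf (0.91 ± 0.10, limma adjusted p = 1.91e-05) and Bub1b (0.36 ± 0.05, adjusted p = 7.64e-05). Both were positive, and both called, in each of the alternatives run. The negative differences of Aurka and Prc1, the smallest, lost their call under quantile normalization (adjusted p = 0.154 and 0.102 in limma). The 7 genes without a called difference were Mad2l1 (0.00 ± 0.06), Cdc20 (-0.02 ± 0.06), Bub3 (0.03 ± 0.05), Plk4 (0.06 ± 0.06), Foxm1 (-0.11 ± 0.06), Kif18b (-0.12 ± 0.08) and Cdc25c (-0.27 ± 0.13). By role, all 5 kinetochore genes, all 3 genes of the passenger complex, all 3 of chromosome structure and all 6 of the midzone fell further in sgHcar1 cells, while of the 5 checkpoint genes 2 did, Ttk and Bub1. Rescaled to an equal sum of FPKM in every library, 41 genes were called negative and 2 positive, where 41.9% of all genes tested were negative and 18% positive. That rescaling moved the median difference of all genes by about -0.2, and relative to it the members' median was -0.58, against -0.53 as deposited.

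The comparison of the guides in PBS asked whether the mitosis genes already differed without lactate. The shares called in each direction were near those of all genes. Of the 43 genes, 17 were lower in sgHcar1 than in sgControl cells, where 38.4% of all genes tested were called lower, and 18 were higher, where 38.2% were called higher. The median difference was 0.01, the same as over all genes tested. This split depended on the scaling: with libraries rescaled to an equal sum, 22 were lower and 7 higher, where 46.8% of all genes tested were lower and 29.4% higher. The median of all genes was then -0.16, and relative to it that of the members was -0.01.

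Mki67 (-1.11 ± 0.03), Top2a (-0.72 ± 0.03), Ccna2 (-0.70 ± 0.04), Ccnb2 (-0.68 ± 0.06) and Nusap1 (-0.60 ± 0.05) were lower in sgHcar1 cells in PBS by the largest amounts. Foxm1 (0.80 ± 0.04), Ttk (0.56 ± 0.04) and Mad2l1 (0.56 ± 0.04) had the largest differences in the other direction. With Kif23 (0.41 ± 0.03), Cenpf (0.40 ± 0.06), Kif20a (0.37 ± 0.04) and Bub1 (0.36 ± 0.05), these 3 were the 7 genes called higher under the rescaling too. The list therefore held genes at opposite ends in the same cells: Mki67 was at 45.8% and Foxm1 at 176% of the level in sgControl cells.

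**Figure D4:**
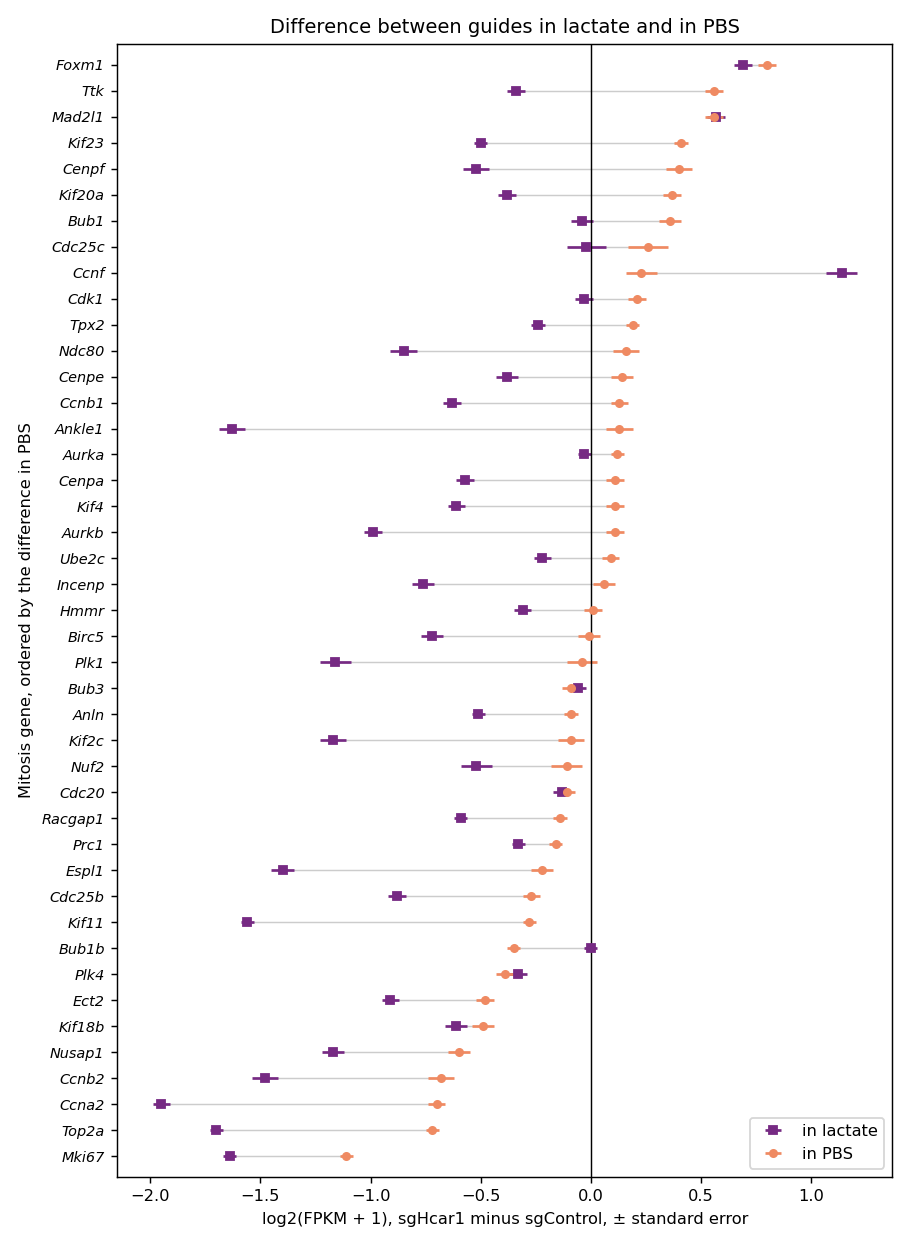
Difference of log2(FPKM + 1) between sgHcar1 and sgControl cells for each mitosis gene in lactate (squares) and in PBS (circles), with standard errors from limma (3 libraries per group) and genes ordered by the difference in PBS. The circles spread evenly around 0, most squares lie to the left of 0, and Ccnf, Foxm1 and Mad2l1 keep squares to the right.

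In lactate the guides stood further apart. In that medium 34 of the 43 genes were lower in sgHcar1 than in sgControl cells, where 40.9% of all genes tested were called lower, and 3 were higher, where 41.3% were. Of the 18 genes that were higher in sgHcar1 cells in PBS, 11 were lower in lactate, 4 were not called and 3, Ccnf, Foxm1 and Mad2l1, were higher there too. The largest differences were those of Ccna2 (-1.95 ± 0.04), Top2a (-1.70 ± 0.03) and Mki67 (-1.64 ± 0.03). In the other direction stood Ccnf (1.14 ± 0.07), Foxm1 (0.69 ± 0.04) and Mad2l1 (0.57 ± 0.04). The 43 genes together summed to 67.7% of the FPKM of sgControl cells in lactate and to 93.9% in PBS. With libraries rescaled to an equal sum, 40 of the 43 genes were lower in lactate and 3 higher. Cdk1, Cdc25c, Bub1, Bub3, Aurka and Bub1b gained their lower call by this rescaling. Of all genes tested, 56.1% were then lower and 26.1% higher. The median of all genes was -0.37, and relative to it that of the members was -0.60, against -0.53 as deposited. Of the 18 genes called higher in PBS, 7 kept that call. How many of all genes changed direction between PBS and lactate was not counted. The comparisons in PBS and in lactate, and those of lactate against PBS, share libraries.

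A wider list of 142 further mitotic genes, all of which passed the filter, mostly fell too, with medians nearer to 0. In sgHcar1 cells 109 of them fell, 17 rose and 16 were not called with lactate (median -0.68). Of all genes tested, 35.4% fell and 36.8% rose there. In sgControl cells 113 of the 142 fell, 10 rose and 19 were not called (median -0.54), where 31.9% of all genes tested fell and 33.9% rose. Of the 142 genes, 51 fell at least 2-fold in sgHcar1 cells, against 6.16% of all genes tested, and 20 in sgControl cells, against 2.95%. The 22 spindle, motor and centrosome genes had the lowest median of the role groups (-1.04) in sgHcar1 cells, with 21 lower. There the chromokinesin gene Kif22 changed by -2.32 ± 0.04 in sgHcar1 and -1.47 ± 0.04 in sgControl cells, and Ckap2l by -2.17 and -1.30. In the kinetochore list Spc25, which encodes a partner of NDC80 and NUF2 in the same complex, changed by -2.09 ± 0.06 and -1.37 ± 0.06, and Spc24, another partner, by -1.24 ± 0.04 and -0.95 ± 0.04. Cdca8, which encodes the passenger subunit borealin, changed by -1.42 ± 0.03 and -1.27 ± 0.03.

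Of 22 regulators of cell cycle transcription, 12 fell and 4 rose in sgHcar1 cells (median -0.26), and 13 fell and 3 rose in sgControl cells (median -0.30). Of all genes tested, 35.4% fell and 36.8% rose in sgHcar1 cells, and 31.9% fell and 33.9% rose in sgControl cells. Mybl2, which encodes B-Myb, was at 6.72 ± 0.885 FPKM in sgHcar1 cells in lactate and 19.6 ± 0.93 FPKM in PBS, and at 15.7 ± 0.248 FPKM in sgControl cells in lactate and 25.7 ± 0.9 FPKM in PBS (SD, n = 3 each). The atypical repressor E2f8 had the deepest falls of the 22, -2.48 ± 0.06 in sgHcar1 and -1.31 ± 0.06 in sgControl cells, and E2f1, an activator of S-phase genes, changed by -0.92 ± 0.04 and -0.71 ± 0.04. Of the MuvB subunit genes, Lin52 and Lin54 rose in sgHcar1 cells (0.46 and 0.36) and were not called in sgControl cells (0.06 and 0.04). Lin9 was at -0.02, not called, in sgHcar1 cells and fell by 0.15 on the log2 scale in sgControl cells, and Lin37 was not called in either (0.16 and 0.03). Among the subunits of NF-Y, Nfya fell in both (-0.25 ± 0.04 and -0.46 ± 0.04), Nfyb rose in sgHcar1 cells (0.22 ± 0.04) and fell in sgControl cells (-0.29 ± 0.04), and Nfyc fell in sgHcar1 cells (-0.49) and was not called in sgControl cells (-0.19).

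Genes of DNA replication act earlier in the cell cycle and were set beside the mitosis genes. Of 32 replication genes, 28 fell and 1 rose with lactate in sgHcar1 cells (median -0.64), and all 32 fell in sgControl cells (median -0.69), where 35.4% and 31.9% of all genes tested fell. The difference between the lactate changes was called for 12 of the 32, 5 negative and 7 positive, with a median of -0.01. Of all genes tested 59.1% had a called difference, 28.7% negative and 30.4% positive, a larger share than among the replication genes. Among the 43 mitosis genes 34 and 2 differences were negative and positive, with a median of -0.52. The medians are descriptions, and a test between the lists was not made.

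**Figure D5:**
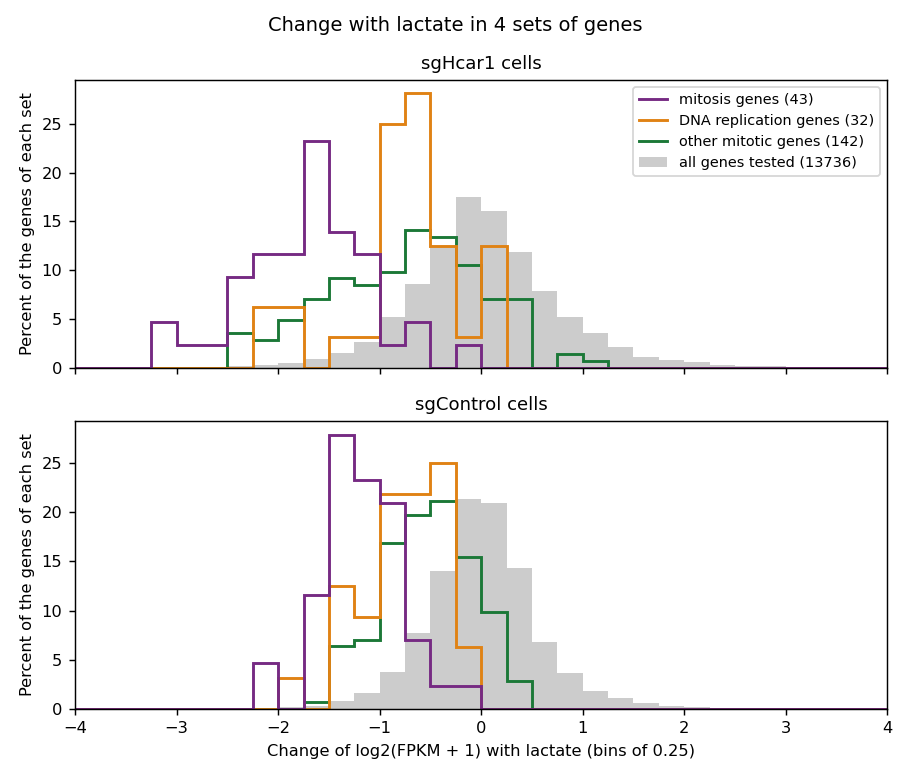
Share of genes (percent of each set) by change of log2(FPKM + 1) with lactate, in bins of 0.25, in sgHcar1 cells (upper panel) and sgControl cells (lower panel), for the mitosis genes, 142 other mitotic genes, 32 DNA replication genes and all 13736 genes tested. The mitosis genes lie at the far left in both panels, with a median of -1.63 in sgHcar1 and -1.20 in sgControl cells, and the replication genes lie between them and all genes.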

How the data were processed

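Libraries were made with a TruSeq kit from 1 µg of Trizol-extracted total RNA of MC38 cells, per the labels' protocols. The authors deposited 1 table of FPKM, named so in its headers. HISAT2 2.0.5, featureCounts 1.5.0-p3 and build GRCm38 are named in the submitters' processing notes, while which fragments make up a library's total is not given in the sources used here. Columns were matched to samples by their letters and numbers, those of sgHcar1 by elimination.

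The test was limma 3.58.1 (R 4.3.3) on log2(FPKM + 1) for genes that reached 1 FPKM in 3 or more libraries, with 1 mean per group over all 12 libraries, no replicate block and an intensity trend. Tests were two-sided, with Benjamini-Hochberg adjustment over 13736 genes within each of 5 contrasts. The fit was tested on simulated data. The members, role groups and lists were chosen with earlier results of these data known. Library values are given for the member with the largest lactate change in each role and kind of cell, for the 3 largest differences in each direction in the other contrasts, and for members that moved against most. Of the other lists, not every gene with 1 of the 2 largest changes of its role, or that moved against its list, is named. Genes named beyond these were chosen after their values were seen. Motifs were counted in RefSeq promoter windows with Python 3.11.15 and pandas 2.3.3, and figures were drawn with matplotlib 3.10.9. Alternatives were a pseudocount of 0.1, no filter, a minimum mean of 5 FPKM, scaling by median ratios, quantile normalization, rescaling to an equal sum, no trend, a replicate block, only the compared groups, and each library left out.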

Additional observations from a re-analysis of the deposited data

Results flagged for a closer look

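The fall with lactate differed between sgHcar1 and sgControl cells, by the test of the difference itself in limma, for 34 mitosis genes with a deeper and 2 with a smaller fall in sgHcar1 cells. Of all genes tested, 59.1% had a called difference, 28.7% negative and 30.4% positive. Values are log2 changes in sgHcar1 cells minus those in sgControl cells.

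The largest were those of Ankle1 (-1.76), Kif11 (-1.28), Ccna2 (-1.26), Espl1 (-1.19), Plk1 (-1.12), Aurkb (-1.10), Kif2c (-1.08) and Ndc80 (-1.02). Between -0.98 and -0.70 lay Top2a (-0.98), Cenpf and Kif23 (-0.91 each), Ttk (-0.90), Incenp (-0.82), Ccnb2 (-0.80), Ccnb1 (-0.76), Kif20a (-0.75), Kif4 (-0.72) and Birc5 (-0.71). Next came Cenpa (-0.68), Cdc25b (-0.61), Nusap1 (-0.57), Mki67 (-0.52), Cenpe (-0.51), Racgap1 (-0.45), Ect2 (-0.43), Tpx2 and Anln (-0.42 each), Nuf2 (-0.41) and Bub1 (-0.40). The smallest were those of Hmmr (-0.32), Ube2c (-0.31), Cdk1 (-0.24), Prc1 (-0.17) and Aurka (-0.15). Ccnf (0.91) and Bub1b (0.36) went the other way. The summed FPKM of libraries, given with the data, moved with the same groups. Relative depth was lowest in sgHcar1 cells in lactate and overlapped among the other groups. The part of both in these differences was not tested. The differences of Aurka and Prc1 lost their call under quantile normalization (limma adjusted p = 0.154 and 0.102).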

How the results depend on the processing

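All 43 genes fell in both kinds of cell under each alternative run, and none changed its call. Leaving out each library in turn kept the members' median between -1.64 and -1.62 in sgHcar1 and between -1.21 and -1.17 in sgControl cells, between -0.55 and -0.51 for the difference between them, between -0.56 and -0.52 for the guides in lactate and between -0.01 and 0.04 for the guides in PBS. The counts ranged from 34 to 35 lower for the difference, from 33 to 35 lower in lactate, and from 15 to 17 lower and 14 to 20 higher in PBS. A pseudocount of 0.1 gave medians of -1.70 and -1.23, -0.57 for the difference and -0.61 between guides in lactate. Quantile normalization gave -1.68 in sgHcar1 cells. Libraries rescaled to an equal sum gave -1.87 in sgHcar1 cells, -0.78 for the difference, -0.97 between guides in lactate and -0.17 in PBS. The medians of all genes were then -0.12, -0.20, -0.37 and -0.16, in the same order. Relative to these, the members' medians were -1.75, -0.58, -0.60 and -0.01. In PBS 7 genes instead of 18 were higher under that rescaling, against 29.4% instead of 38.2% of all genes tested. The replicate numbers did not pair the libraries: of 18 correlations of deviations between same-numbered libraries, from -0.0505 to 0.085, none passed 0.1. A fit with the replicate block gave 34 and 2 called genes for the difference, as without it, and 17 lower and 19 higher genes in PBS, against 17 and 18 without it, since Ube2c gained a call (limma adjusted p = 0.0486).

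Signs turned as follows, with the cause not tested. For the difference, Bub3 was -0.11 under quantile normalization, and rescaling gave Bub3 -0.20, Mad2l1 -0.19 and Plk4 -0.17. In PBS, quantile normalization gave Incenp and Ube2c -0.02, and rescaling gave Ccnb1, Ankle1 and Cenpe -0.04, Cenpa and Kif4 -0.07, Ndc80 -0.01, Aurkb and Aurka -0.06, Incenp -0.12, Hmmr -0.17 and Ube2c -0.09. In lactate, quantile normalization gave Cdc25c 0.06 and Bub1b -0.08, and rescaling gave Bub1b -0.41. Called after turning were the rescaled values of Bub3, Mad2l1 and Plk4 for the difference and of Hmmr in PBS. Both values of Bub1b in lactate were called too. With each library left out, Mad2l1 ranged from -0.05 to 0.04 and Cdc20 from -0.06 to 0.01 for the difference, Birc5 from -0.05 to 0.02, Incenp from -0.02 to 0.11 and Hmmr from -0.01 to 0.04 in PBS, and Bub1b from -0.02 to 0.03 and Cdc25c from -0.14 to 0.09 in lactate. None of these 7 was called as deposited. Depth is unknown.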

Other observations

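Some genes of the wider mitotic list rose with lactate. Zwint, a kinetochore protein gene, was at 85.9 ± 0.943 FPKM in sgHcar1 cells in lactate and 44.7 ± 0.12 FPKM in PBS, and at 36.8 ± 0.804 FPKM in sgControl cells in lactate and 30.2 ± 0.697 FPKM in PBS (SD, n = 3 each). Its change was 0.93 ± 0.02 in sgHcar1 and 0.28 ± 0.02 in sgControl cells. Wapl, which releases cohesin from chromosomes, rose by 0.92 ± 0.04 and 0.29 ± 0.04. Ppp2r2a, a regulatory subunit of the phosphatase PP2A, rose by 1.18 ± 0.04 and 0.18 ± 0.04.

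Of 16 genes of the anaphase-promoting complex and its partners, 11 fell and 3 rose in sgHcar1 cells (median -0.49). In sgControl cells 15 of the 16 fell (median -0.43). Of all genes tested, 35.4% fell and 36.8% rose in sgHcar1 cells, and 31.9% fell in sgControl cells. Fbxo5, whose product EMI1 inhibits the complex, was at 6.99 ± 0.502 FPKM in sgHcar1 cells in lactate and 42.2 ± 1.9 FPKM in PBS, and at 15.7 ± 1.07 FPKM in sgControl cells in lactate and 29.4 ± 1.77 FPKM in PBS (SD, n = 3 each). Fzr1, the activator that takes over from CDC20 late in mitosis, changed by -2.07 ± 0.04 in sgHcar1 and -1.34 ± 0.04 in sgControl cells. The rises in sgHcar1 cells were those of the core subunits Anapc7 (0.39), Cdc16 (0.30) and Cdc27 (0.23). Zw10, of a kinetochore complex, changed in opposite directions, by 0.35 ± 0.04 in sgHcar1 and -0.56 ± 0.04 in sgControl cells.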
